A study of Mus musculus with 6 samples.

Results

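The barcodes described here are macrophages and other myeloid cells that remained among the stromal vascular cells of inguinal white adipose tissue (iWAT) after sorting had depleted CD45+ immune cells. A barcode is the sequence tag of 1 droplet, and a UMI is a tag that marks 1 captured RNA molecule. Members were chosen by measured counts: a barcode had to hold at least 1000 UMIs, under 10% mitochondrial UMIs, fewer than 30 UMIs of Dcn (decorin, a fibroblast proteoglycan) per 10,000, no UMI of Cd79a or Cd3e (B and T cell receptor subunits), and at least 5 summed UMIs of C1qa, C1qb, C1qc and Lyz2. This rule chose 114 of 68103 barcodes, which is 114 of the 61195 that passed the UMI and mitochondrial limits. The 7 genes of the rule therefore describe the members and are not findings about them.

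All animals were male C57BL/6 mice that had first spent 3 weeks at 30 °C. Young mice (9 weeks) and aged mice (57 weeks) then stayed at 30 °C (TN), or were moved to 6 °C for the last 3 days (3D) or for 14 days (14D). Each age and temperature gave 1 library, so 6 libraries carried every comparison, the cold effect was read across 2 ages and the age effect across 3 temperatures. The number of mice behind each library was not stated in the sources used here. The methods for cell isolation say only that mice stayed separate where no pooling is mentioned, and the labels name no separate cultures or animals as replicates. P-values therefore measured only the spread between these libraries, which may be technical. With 1 library per age and temperature, that spread includes any change of the age effect with temperature. The tests of genes also shared the spread across genes. In the comparison with fibroblasts they relied on a spread pooled over genes and not on that of each gene. Because CD45+ cells had been sorted away, the members were the remainder that the sort missed, and their share of a library was not the share of myeloid cells in the tissue.

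Tissue macrophages clear dying cells, iron and lipid, and in adipose tissue they line vessels and surround dying adipocytes. C1q is the recognition molecule of the classical complement pathway and is made in most tissues by macrophages, whereas Lyz2 (lysozyme) is made by macrophages, monocytes and neutrophils alike. Blood monocytes enter the tissue through chemokine receptors and can mature there, and chemokines such as Ccl2, Ccl3 and Ccl4 are secreted by activated macrophages to recruit other leukocytes. Adipose macrophages have been studied in cold-exposed fat for their contacts with sympathetic nerves and with adipocyte progenitors.

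The libraries held between 52068837 UMIs (aged 14D) and 88508349 UMIs (young TN). Young libraries gave 19 members at TN, 22 at 3D and 9 at 14D, with 182341, 109022 and 70034 UMIs in all. Aged libraries gave 18, 28 and 18 members, with 101952, 202165 and 233466 UMIs. The median member held between 4217.5 UMIs (young 3D) and 8558.5 UMIs (aged 14D), so the summed profile of a library rested on few cells. The aged 14D library stood apart in 2 ways: a single barcode of 80645 UMIs made 34.5% of its member UMIs, and its barcodes within the limits had the lowest median depth, 3456 UMIs. The barcode sequences of 3 members (2.63%) also occurred in another library, against 1.56% of all barcodes, and none was a member in both. No doublet caller was run, and results are given with and without barcodes that carried markers of other cells.

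The rule separated barcodes cleanly in the number of marker UMIs. Of the barcodes that met the other limits, 8099 had no UMI of the 4 markers, 95 had 1 or 2 and only 3 had 3 or 4. Just inside, 5 members had 5 to 9 marker UMIs and 16 had 10 to 19, and the median member had 91. Near the Dcn limit, 4 members had 10 to 30 Dcn UMIs per 10,000.

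Leukocyte genes that the rule did not use bore out the label for most members. Ptprc, which encodes CD45 itself, had a UMI in 91 of the 114 members, and in 66.7% to 94.4% of the members of a library. Tyrobp, the signalling adaptor of many myeloid receptors, had a UMI in 89.5% to 100% of them. In the fibroblast barcodes of the same libraries (Dcn at 30 or more per 10,000, median depth 3586 to 10113 UMIs), the corresponding shares were 0.0923% to 0.326% for Ptprc and 0.119% to 0.750% for Tyrobp. In the other barcodes below the Dcn limit, the shares were 1.28% to 6.09% for Ptprc and 0.640% to 1.50% for Tyrobp. Both genes were thus detected far more often in the members than in either kind of barcode. The UMIs of these genes in the fibroblast and other barcodes were not traced to a source. C1qa was found in 0.0917% to 0.935% of fibroblast barcodes. Markers of eosinophils were absent except for 1 UMI of Siglecf. The lymphocyte list stayed at 0.857 UMIs per 10,000 or lower in every library, which the rule in part fixed by leaving out barcodes with Cd79a or Cd3e.

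The members fell into 81 C1q-positive barcodes, with at least 5 C1q UMIs, and 33 barcodes with fewer, called Lyz2-only here, of which 29 had no C1q UMI and 4 had 1 to 4. C1q-positive barcodes numbered 14, 14 and 5 in the young TN, 3D and 14D libraries and 10, 22 and 16 in the aged ones. This division was made with genes of the rule, and the differences that follow are descriptions of the same cells with no test. The C1q-positive barcodes had less Ptprc, with a median of 2 UMIs against 5 in the Lyz2-only barcodes.

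**Figure D1:**
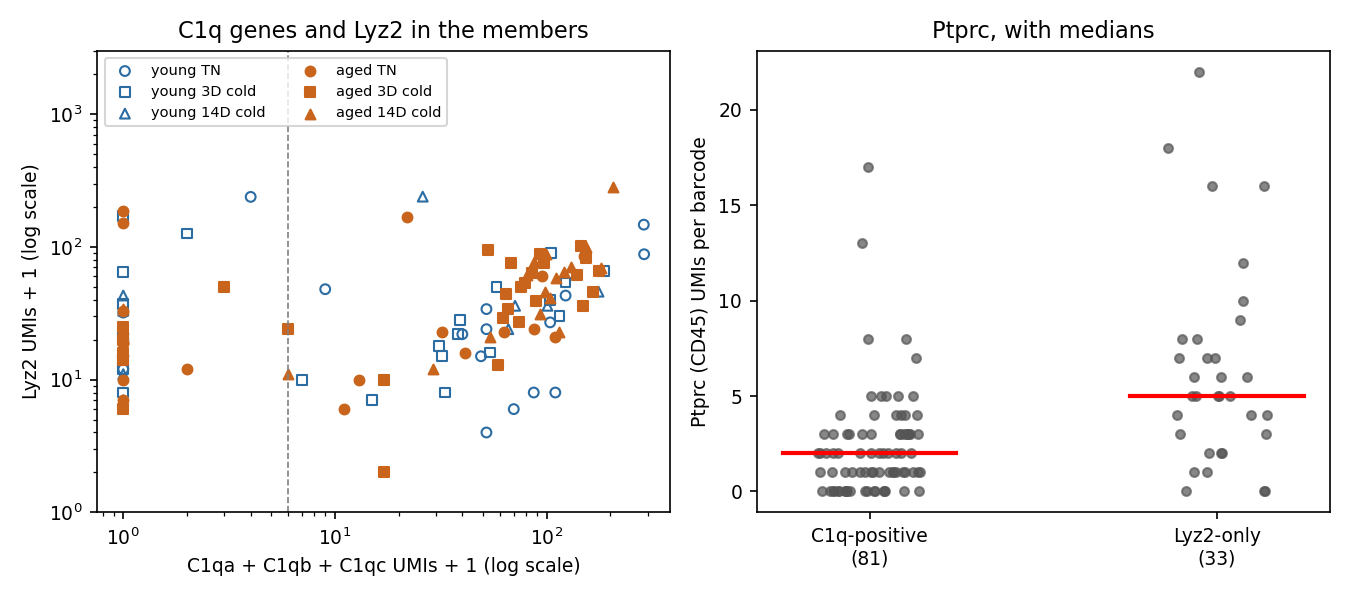
Left, C1q UMIs (C1qa, C1qb and C1qc summed) against Lyz2 UMIs in each of the 114 members, both plus 1 on log scales, with blue open symbols for young and orange filled symbols for aged libraries and a dashed line at 5 C1q UMIs. Right, Ptprc UMIs per barcode with red lines at the medians (2 in the 81 C1q-positive and 5 in the 33 Lyz2-only barcodes), where both kinds spread widely.

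C1q-positive barcodes carried the genes of tissue-resident macrophages. The summed tissue-resident list, 12 genes including the mannose receptor Mrc1 and the folate receptor Folr2, had a median over libraries of 162 UMIs per 10,000 in them and 2.39 in the Lyz2-only barcodes, and it was higher in C1q-positive barcodes in 6 of 6 libraries. Lyve1 (a hyaluronan receptor of perivascular macrophages), Cd163 (the haemoglobin scavenger receptor) and Cd209f had UMIs in 41, 40 and 58 C1q-positive barcodes and none in a Lyz2-only barcode. Apoe, the lipid carrier that was the most abundant gene of the C1q-positive barcodes, stood at 150 UMIs per 10,000 in them and 10.0 in the others. The alternative activation gene Retnla stood at 75.5 and 4.48.

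Lyz2-only barcodes had more monocyte RNA but were mixed. They included the 9 barcodes of a monocyte-like cluster and 2 barcodes with neutrophil genes, described with the clusters and single barcodes, and the monocyte list ranged from 0 to 88 UMIs per barcode. Their monocyte list had a median of 22.9 UMIs per 10,000 against 3.49, and was higher than in the C1q-positive barcodes of the same library in 6 of 6 libraries. Plac8 stood at 13.2 UMIs per 10,000 against 0.577, the interleukin gene Il1b at 10.2 against 0.319, and Cd52, a leukocyte surface glycoprotein, at 19.5 against 2.48. Ly6c2, the marker of classical monocytes, had UMIs in 11 Lyz2-only barcodes and in no C1q-positive one. Antigen presentation did not follow this division: the MHC class II list had medians of 202 in C1q-positive and 267 in Lyz2-only barcodes and was higher in C1q-positive barcodes in 3 of 6 libraries.

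Among the secreted products, chemokines belonged mainly to the C1q-positive barcodes. The list of 19 cytokines and chemokines had a median of 108 UMIs per 10,000 in them and 30.2 in the others. Ccl8 stood at 38.8 against 0.291, Cxcl2 (which recruits neutrophils) at 31.7 against 3.07, and Ccl2 (MCP-1, which recruits monocytes) at 16.4 against 0.664. Igf1, a growth factor for stromal progenitors, stood at 4.76 against 0.125, and Hbegf and Bmp2 had UMIs in 32 and 27 C1q-positive barcodes and in no Lyz2-only barcode. The list of 10 dissociation and immediate early genes, which rise when tissue is digested, moved the same way, with medians of 161 and 52.6. Its part in these differences was not tested.

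Some adipose macrophages are known to take up and break down noradrenaline. Slc6a2 (the noradrenaline transporter) and Th (tyrosine hydroxylase, which makes catecholamines) had 0 UMIs of 898980, which allows up to 3 UMIs by counting error alone. Maoa, which degrades noradrenaline, had 36 UMIs in 24 barcodes.

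Clustering on all genes gave 7 clusters at the resolution used, and 4 or 8 at lower and higher resolutions. Clusters 0, 2 and 3 (25, 17 and 17 barcodes) were tissue-resident macrophage-like, with 7, 10 and 8 of the 12 markers raised. A raised marker was found in at least 30% of the cluster, at 1.5 times the level of the remaining members or more. The marker counts of the other clusters used the same limits, so a marker that was not counted could still have UMIs. Cluster 0 was led by Ccl8, Mgl2, Cd209f and MHC class II genes, and cluster 2 by Fcna, Retnla, Lyve1 and Folr2. Cluster 3 was led by Gm26532 and the heat shock gene Hspa1a together with Ccl7, Dusp1 and Ccl2, and Hspa1b was among the leading genes of cluster 0. The part of stress genes in this division was not tested.

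The remaining clusters held fewer macrophage markers. Cluster 5 (9 barcodes, none C1q-positive) was monocyte-like, with 8 of 12 markers, and was led by Ace, Gngt2 and the integrin gene Itgal. Cluster 1 (25 barcodes, 7 C1q-positive; Il1b, Cd52, S100a11), cluster 4 (14 barcodes; Fabp4, Igfbp7, Sparc) and cluster 6 (7 barcodes; Timd4, Vcam1, C3) were left unnamed. Cluster 1 had 4 of 12 lipid-associated markers (Cd9, Lpl, Fabp5 and Lgals3) but held the 2 barcodes with neutrophil genes and the deepest barcode, and cluster 6 had 3 of 10 macrophage core markers (Mertk, Aif1 and Cd14) in 7 barcodes. Cluster 4 had 4 of 10 fibroblast and 7 of 10 endothelial markers, and only 4 of its 14 barcodes were strict members, those with fewer than 3 endothelial and fewer than 3 smooth muscle or pericyte UMIs. It contributed 6 of the 18 members of the aged 14D library and between 1 and 3 members of each other library. Cluster 6 had 3, 2 and 1 members in the young TN, 3D and 14D libraries and 1, 0 and 0 in the aged ones, numbers too small to compare.

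**Figure D2:**
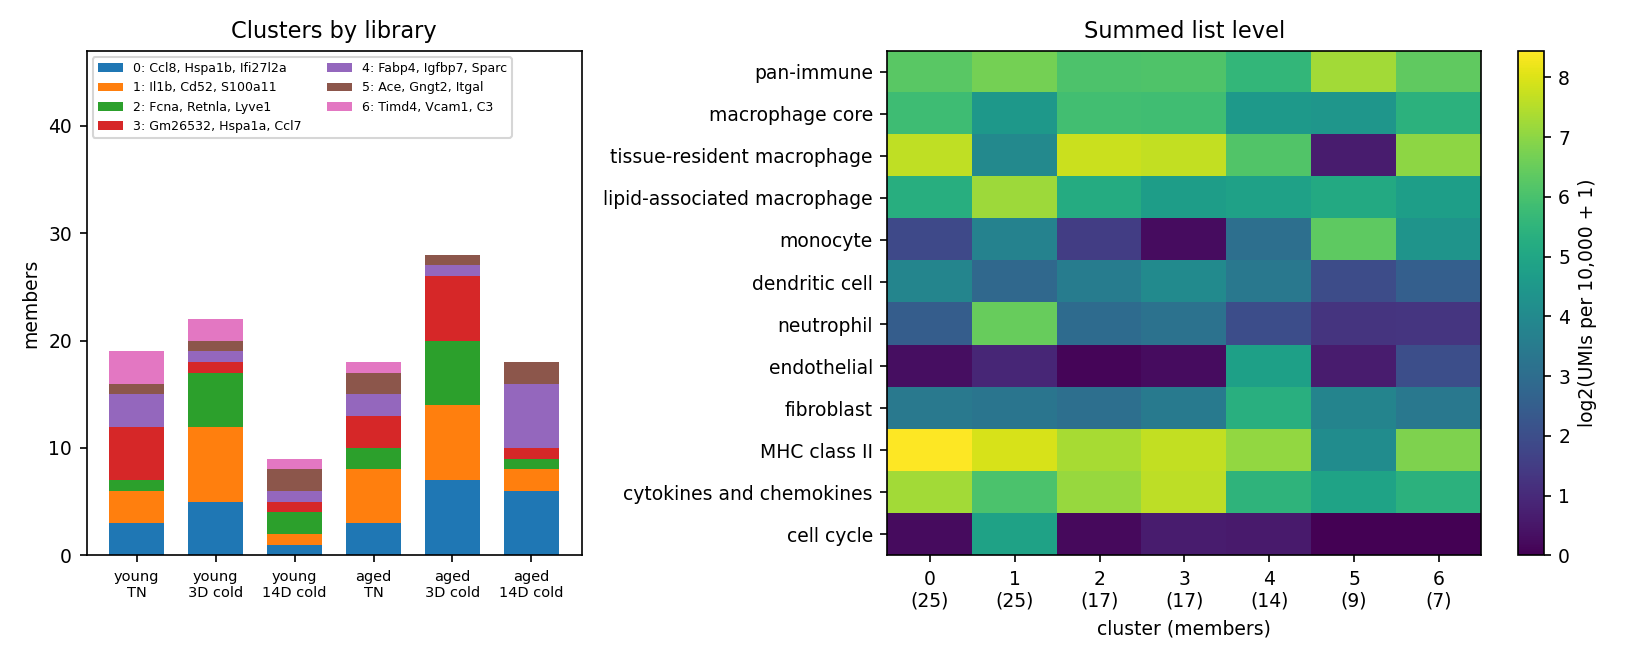
Left, members per library stacked by cluster, each cluster with its 3 leading genes. Right, summed level of 12 marker and pathway lists in each cluster as log2 (UMIs per 10,000 + 1), where clusters 0, 2 and 3 are high for the tissue-resident list, cluster 5 for the monocyte list and cluster 4 for the endothelial list.

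A few single barcodes stood far from the others. The deepest, a C1q-positive barcode of the aged 14D library with 80645 UMIs and 7275 genes, held 1383 UMIs of Lgals3 (galectin-3), 218 of the macrophage elastase Mmp12 and 137 of Gpnmb, genes of lipid-associated macrophages. It also held 675 UMIs of the cell cycle list, against 102 in the next barcode and 7 in the one after. Yet it had only 32 UMIs of the 10 MHC class II genes, of which 9 were Cd74. In the young 3D library 2 Lyz2-only barcodes held 2143 and 319 UMIs of the neutrophil list, of which 1062 in the first were S100a9, and no other member exceeded 19. One Lyz2-only barcode of the young TN library held 447 UMIs of Ctla2a, 216 of Cd9, 212 of Nrgn and 208 of Pf4 (platelet factor 4) with no UMI of Ptprc. Rare dendritic cell genes were equally concentrated, with all 32 UMIs of the migration receptor Ccr7 in 1 young TN barcode and all 25 UMIs of Xcr1 in 3 Lyz2-only barcodes.

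The share of members among barcodes within the limits was compared between ages. It was 0.209% at TN, 0.212% at 3D and 0.0805% at 14D in young libraries, and 0.179%, 0.268% and 0.180% in aged libraries. The young 14D library had the lowest share and the aged 3D library the highest, and the ages overlapped. Exact (Clopper-Pearson) 95% intervals were wide, for example 0.0368% to 0.153% for young 14D and 0.107% to 0.285% for aged 14D, and they cover counting error only. The mean was 0.167% ± 0.0750 (SD, n = 3) in young and 0.209% ± 0.0510 (SD, n = 3) in aged libraries, a difference of 0.0417 percentage points with a two-sided exact permutation p = 0.6. With 3 libraries against 3 no p below 0.1 was possible. Without the young 14D library the difference was -0.00157 percentage points, so its direction rested on that library.

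The Dcn limit removed very different numbers of barcodes from the libraries. In the aged 14D library 40 of the 58 barcodes with at least 5 marker UMIs lay above it, against 1 to 5 barcodes in each of the other libraries. These 40 had a median of 1653 UMIs, 96.1 Dcn UMIs per 10,000 and 11 marker UMIs, and 8 of them had a Ptprc UMI. Counting the Dcn-positive barcodes as well raised the aged 14D share to 0.550% and the difference between ages to 0.161 percentage points (two-sided exact permutation p = 0.3). Whether they were fibroblasts with free macrophage RNA or droplets with 2 cells was not tested.

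**Figure D3:**
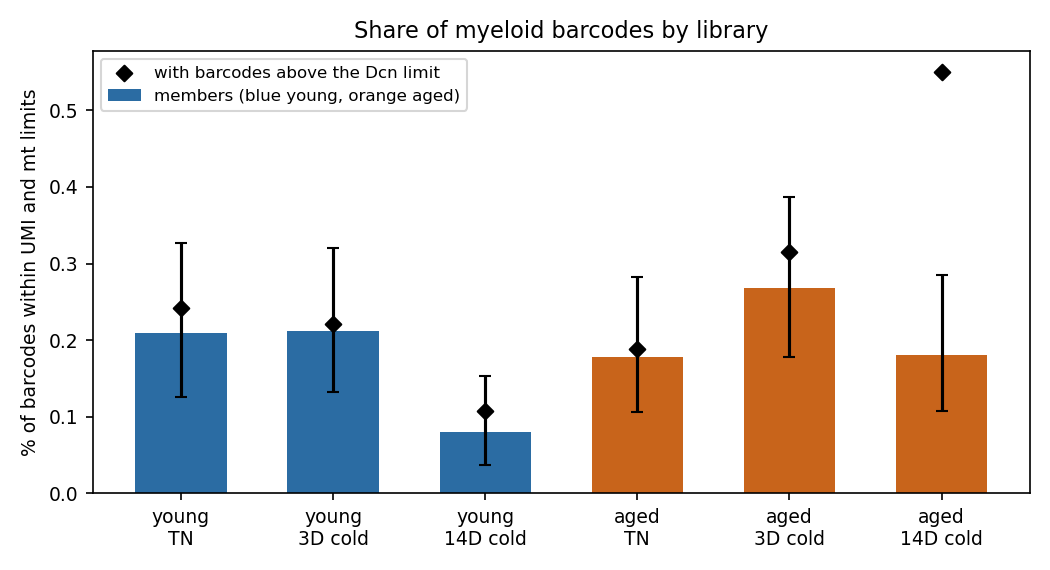
Members as a percentage of barcodes within the UMI and mitochondrial limits in each library, with exact 95% binomial intervals (counting error only). Diamonds add the barcodes above the Dcn limit and rise far above the bar only in the aged 14D library (0.550% against 0.180%).

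Within the members, the C1q-positive share was 73.7%, 63.6% and 55.6% in the young TN, 3D and 14D libraries and 55.6%, 78.6% and 88.9% in the aged ones. Means were 64.3% ± 9.08 (SD, n = 3) and 74.3% ± 17.1 (SD, n = 3), and the ages overlapped. No test is given, since C1q genes chose the members.

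The effect of cold was tested on member UMIs summed per library, with age as a second term. Of 2299 genes tested, 1 differed among the 3 temperatures at an adjusted p below 0.05 (edgeR quasi-likelihood test, Benjamini-Hochberg), which is 0.0435% of the genes, and 106 had an unadjusted p below that value. The same gene was the 1 of 2299 (0.0435%) called between 3D and TN, where 89 passed unadjusted. That gene was Ccl4 (ENSMUSG00000018930; GRCm38 chromosome 11, 83662584 to 83664683), which encodes the chemokine MIP-1β.

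Ccl4 had 2 UMIs in the young TN library, 79 at 3D and 8 at 14D, and 2, 166 and 63 UMIs in the aged libraries. Per 10,000 member UMIs these were 0.110, 7.25 and 1.14 in young and 0.196, 8.21 and 2.70 in aged mice. Both 3D libraries were the highest of their age and both TN libraries the lowest, with no overlap between temperatures. The log2 fold change from TN to 3D was 5.62 (SE 0.52, adjusted p = 0.00158 by the edgeR quasi-likelihood test), and the level was higher at 3D at both ages. Summed over both ages, the level at 3D was 56.0 times that at TN, with a counting interval of 21.6 to 207 that treats UMIs as independent, which those of 1 barcode are not.

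Few cells carried this signal. Ccl4 had a UMI in 4 of 37 members at TN (10.8%), 17 of 50 at 3D (34%) and 7 of 27 at 14D (25.9%), against 0.0132% to 0.239% of fibroblast barcodes in a library. With every member thinned to 1000 UMIs, 0, 10 and 4 members kept one. The highest barcode held 68 of the 79 UMIs in the young 3D library and 53 of 166 in the aged one. Leaving out the barcode with the most Ccl4 in each library gave a log2 fold change of 4.998 (adjusted p = 0.0137, the same edgeR test). The call was lost when the aged TN library was left out (5.75, adjusted p = 0.169, edgeR) and when 9 members were drawn from each library (8.37, adjusted p = 0.0647, edgeR). In C1q-positive barcodes alone Ccl4 was detected in 4 of 24 at TN, 14 of 36 at 3D and 6 of 21 at 14D.

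Between 14D and TN no gene of 2299 passed (0%), by the edgeR test, with 117 at an unadjusted p below 0.05, whereas DESeq2 called 1. Ccl4 had a log2 fold change of 3.67 there (adjusted p = 0.162, edgeR quasi-likelihood test). Its level at 14D was 16.6 times that at TN, with a counting interval of 6.22 to 62.7.

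Its neighbour on chromosome 11, Ccl3 (MIP-1α, 83647844 to 83649355), is a related chemokine. Ccl3 had 5, 16 and 0 UMIs in the young TN, 3D and 14D libraries and 13, 135 and 43 in the aged ones. It was highest at 3D at both ages, but a log2 fold change of 2.37 from TN to 3D did not pass over all genes. Of the 14 cytokine and chemokine genes tested, 10 had higher values at 3D than at TN, and Ccl4 was the 1 that passed, the same single call as among all genes (0.0435%). Their median log2 fold change was 0.85, against -0.02 over all 2299 genes. Ccl2 was 6.54 UMIs per 10,000 at TN, 19.8 at 3D and 9.62 at 14D over both ages, and Tnf was 0.704, 1.86 and 1.29, and neither passed.

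**Figure D4:**
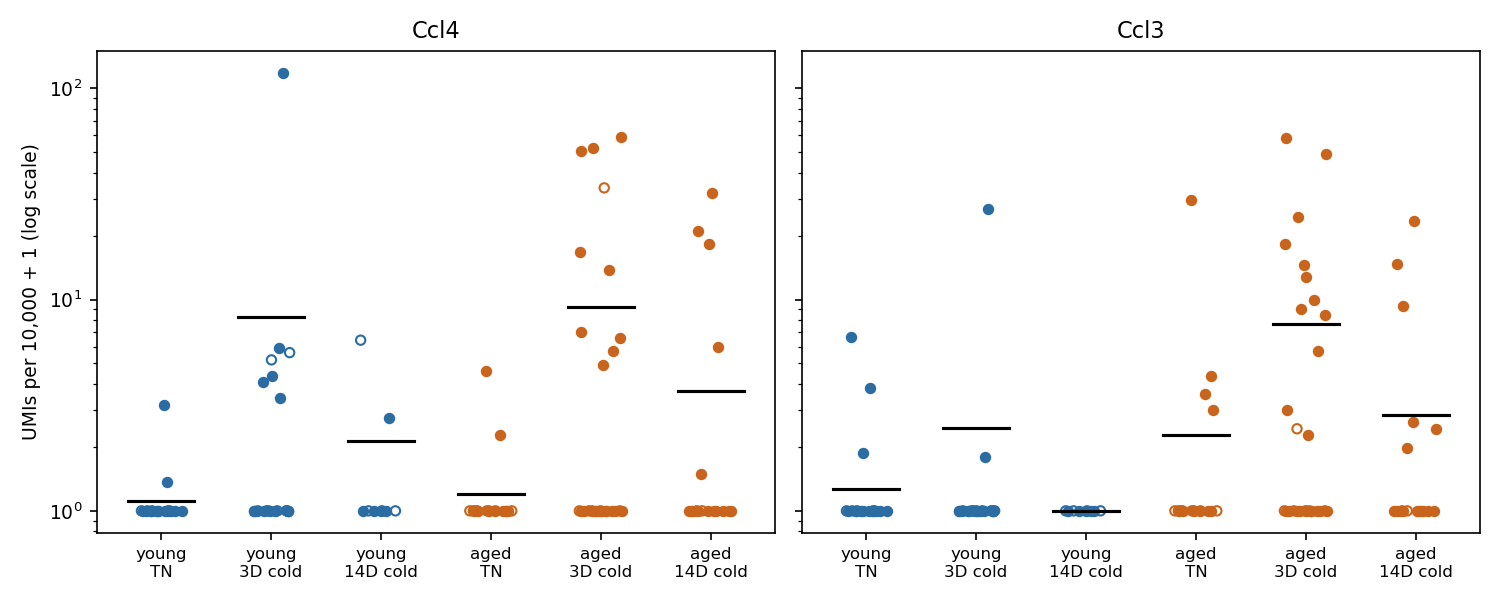
Ccl4 and Ccl3 in each member as UMIs per 10,000 + 1 on a log scale, by library, with filled symbols for C1q-positive and open symbols for Lyz2-only barcodes and black lines at the summed level of the library. Most members have none, and the 3D libraries hold the members with the most.

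Other groups of genes gave no calls between temperatures. The MHC class II list was 132, 271 and 226 UMIs per 10,000 in young and 302, 279 and 135 in aged libraries at TN, 3D and 14D, and 0 of its 6 tested genes passed in any comparison. These levels depended on the barcodes included: aged 14D was 204 without the deepest barcode, young TN was 265 in strict members, and young 14D was 81.6 in C1q-positive barcodes. The same lack of calls was seen for 14 lysosome genes, 10 genes of iron and haem handling and 7 macrophage transcription factors. Endothelial RNA differed between the libraries. The list was 10.1, 0.275 and 4.00 UMIs per 10,000 in young and 6.08, 0.445 and 7.15 in aged libraries, with 10 of 10 genes detected and Ly6c1 the most abundant. Both 3D libraries were the lowest, and of its 2 tested genes 0 passed. Few barcodes held it, since 2 young TN barcodes had 89 and 62 of the 185 UMIs of their library and 1 aged 14D barcode had 89 of 167. In strict members alone, Ccl4 kept a log2 fold change of 5.36 (adjusted p = 0.00112, edgeR quasi-likelihood test).

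Age was tested in the same fit with temperature as a term. Of 2299 genes, 1 passed (0.0435%) and 120 had an unadjusted p below 0.05, 61 of them higher in aged members. The gene that passed was Col1a1 (ENSMUSG00000001506; chromosome 11, 94936224 to 94953042), the fibroblast gene for a chain of type I collagen. It had 32, 8 and 57 UMIs in young and 4, 1 and 12 in aged libraries at TN, 3D and 14D, or 1.75, 0.734 and 8.14 against 0.392, 0.0495 and 0.514 per 10,000. The young libraries were all above the aged ones, and Col1a1 fell by 3.48 on the log2 scale (SE 0.47, adjusted p = 0.0459, edgeR quasi-likelihood test).

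Fibroblast RNA was also present in the members. The fibroblast list, with 10 of 10 genes detected and Gsn the most abundant, was 13.8, 12.7 and 54.8 UMIs per 10,000 in young and 8.63, 7.32 and 11.1 in aged libraries. The ages did not overlap, but without the deepest barcode aged 14D was 14.1 and they did. One young 14D member, with 28.6 Dcn UMIs per 10,000 and 322 UMIs of the fibroblast list, held 51 of the 57 Col1a1 UMIs of its library. When members were limited to fewer than 10 Dcn UMIs per 10,000, the value was -2.38 (adjusted p = 0.416, edgeR). Leaving out the young 14D, aged TN, aged 3D or aged 14D library gave -2.57, -3.98, -3.39 and -2.63, with adjusted p-values of 0.0937, 0.214, 0.449 and 0.0763 (edgeR), so the call needed each of these libraries. In the fibroblast barcodes Col1a1 itself was 64.5, 42.3 and 61.2 UMIs per 10,000 in young and 29.8, 15.6 and 26.3 in aged libraries, with every young library above every aged one. The part of fibroblast RNA in the difference between members was not tested. Col3a1, Col1a2 and Sparc, which are matrix genes of the same cells, had log2 fold changes of -2.37, -2.34 and -1.92 and did not pass.

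The next genes by unadjusted p did not pass over all genes and are given as values. Ccl3 was 0.274, 1.47 and 0 UMIs per 10,000 in the young TN, 3D and 14D libraries and 1.28, 6.68 and 1.84 in the aged ones, with a log2 fold change of 2.50 (SE 0.46, adjusted p = 0.107, edgeR quasi-likelihood test). The aged library was higher at each temperature, and the young 3D value lay above the aged TN value. Lmna, which encodes the nuclear lamins A and C, was 1.86, 2.57 and 2.43 in young and 5.49, 5.99 and 9.98 in aged libraries, with no overlap (log2 fold change 1.56, SE 0.32, adjusted p = 0.169, edgeR). Rab7b, a GTPase of late endosomes, was 1.26, 1.56 and 0.857 against 3.63, 3.26 and 2.14, and the transcription factor gene Mef2c was 1.70, 1.28 and 0.714 against 2.84, 3.36 and 3.68. Neither overlapped between ages.

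Among the genes with lower values in aged members, Itgal, the integrin alpha L chain of leukocyte adhesion, had 38, 23 and 16 UMIs in young and 6, 8 and 9 in aged libraries, or 2.08, 2.11 and 2.28 against 0.589, 0.396 and 0.385 per 10,000. All young libraries lay above all aged ones, and the log2 fold change was -2.30 (SE 0.38, adjusted p = 0.0796, edgeR quasi-likelihood test). Its UMIs lay in 25 members, and it was a leading gene of the monocyte-like cluster 5, which had no C1q-positive barcode. C1q-positive barcodes held 134918, 74244 and 27340 of the 182341, 109022 and 70034 member UMIs in the young TN, 3D and 14D libraries. In the aged libraries they held 54199, 140800 and 226613 of 101952, 202165 and 233466. The part of this mix of barcodes in the age values was not tested. Itgal belongs to the monocyte list, of which 0 of 3 tested genes passed (0.0435% of all tested genes did). All 3 had lower values in aged members, with a median log2 fold change of -1.24. The summed list was 9.98, 29.2 and 14.8 UMIs per 10,000 in the young TN, 3D and 14D libraries and 12.8, 7.07 and 2.66 in the aged ones, which overlapped. Gfra2, a co-receptor of the GDNF family, was 2.63, 1.56 and 1.14 against 0.294, 0.247 and 0.642. Lyve1 was 4.44, 3.12 and 2.71 against 1.28, 1.73 and 1.71, again with no overlap (log2 fold change -1.12, adjusted p = 0.492, edgeR). Lymphatic endothelial cells also make Lyve1, and 1 young TN barcode with 30 UMIs of the lymphatic gene Prox1 held 34 of the 81 Lyve1 UMIs of its library. Groups that do not overlap were common here, since 234 of the 2299 genes (10.2%) had no overlap between ages.

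The gene lists of macrophage states gave no calls with age. Of the 12 tissue-resident genes tested 0 passed, against 0.0435% of all tested genes. Lower values in aged members were found for 9, and the median log2 fold change was -0.34 against -0.01 over all genes. In 2 of the 12, every aged library lay below every young one, where 10.2% of all tested genes had no overlap, in either direction. The direction of the summed list changed with the barcodes included: its means were 107 in young and 105 in aged libraries, 107 and 121 without the deepest barcode, 124 and 110 in strict members, and 171 and 147 in C1q-positive barcodes. Timd4, a phosphatidylserine receptor of resident macrophages, was 13.4, 1.65 and 2.71 UMIs per 10,000 in young and 0.0981, 0.445 and 1.93 in aged libraries, and 123 of its 337 UMIs were in 1 young TN barcode. Mrc1 and Folr2 had log2 fold changes of 0.31 and -0.48. All 6 tested MHC class II genes lay between 0.03 and 0.18.

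Lipid-associated genes had a higher median than the tissue-resident and core macrophage lists, with the same lack of calls. Of 9 tested genes 0 passed, 8 had higher values in aged members, 5 had no overlap between ages (10.2% of all tested genes had none, in either direction), and the median log2 fold change was 1.07. Lpl (lipoprotein lipase) was 3.13, 1.28 and 1.14 UMIs per 10,000 in young and 8.73, 3.61 and 11.5 in aged libraries, with no overlap (log2 fold change 1.98, SE 0.40, adjusted p = 0.169, edgeR quasi-likelihood test). Trem2, the lipid receptor that defines these macrophages, was 0.329, 0.550 and 0 against 1.77, 0.989 and 4.41 (2.52, adjusted p = 0.448, edgeR), and 1 barcode held 85 of its 153 UMIs. Lgals3 was 4.94, 8.71 and 3.57 against 13.9, 10.1 and 71.9, of which the deepest barcode held 1383 of 1679 UMIs in aged 14D. The summed list was 35.2, 31.9 and 17.8 in young and 47.1, 34.9 and 164 in aged libraries, and 71.8 in aged 14D without that barcode. A second aged 14D barcode, of 19002 UMIs, held 608 of the 1097 list UMIs that then remained, so 2 barcodes held most of the list UMIs of this library.

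**Figure D5:**
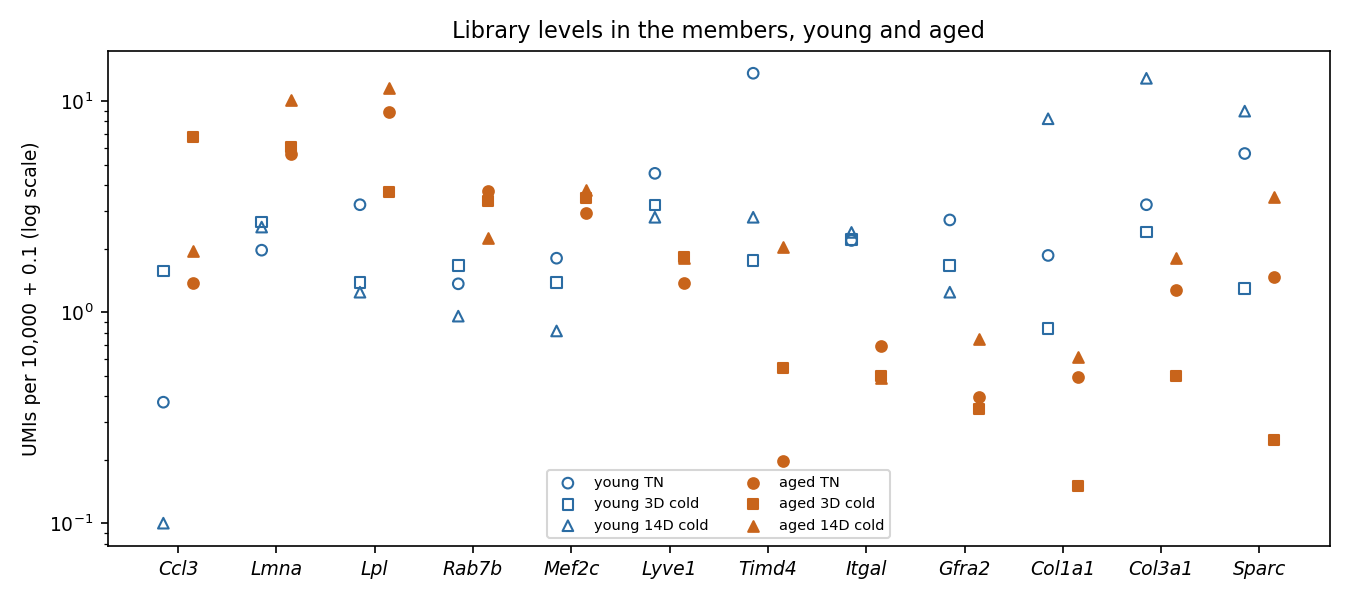
Library levels of 12 genes in the members as UMIs per 10,000 + 0.1 on a log scale, young (blue, open) beside aged (orange, filled), with circles for TN, squares for 3D and triangles for 14D. The aged libraries lie above the young ones for Lmna, Lpl, Rab7b and Mef2c and below them for Lyve1, Itgal, Gfra2, Col1a1 and Col3a1, while Ccl3, Timd4 and Sparc overlap.

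In C1q-positive strict members with under 50000 UMIs, 7 of 1002 genes passed with age. This set was chosen after the data had been seen. Ccl3 (log2 fold change 2.24, adjusted p = 0.00449), Btg2 (1.92), Lmna (1.58) and Odc1 (2.67, the first enzyme of polyamine synthesis) were higher in aged members by the edgeR quasi-likelihood test, and Naaa (-1.93), Cd209b (-1.38) and Ifi27l2a (-0.99) were lower. Btg2, in CPM (counts scaled to the summed UMIs of each library), was 184, 210 and 204 in young and 790, 842 and 584 in aged libraries, with no overlap. Lpl had a log2 fold change of 0.36 in this set, against 1.98 in all members.

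Last, the age effect in the members was compared with that in the fibroblast barcodes of the same libraries, with an interaction term over 13695 genes. It differed for 25 genes (0.183%) by the edgeR quasi-likelihood test, 6 with a higher and 19 with a lower value in members, and 409 genes had an unadjusted p below 0.05. Lpl was one of them, and 2 aged 14D barcodes held 131 and 112 of its 509 UMIs. In fibroblasts Lpl was 19.9, 19.3 and 18.03 UMIs per 10,000 in young and 23.3, 13.2 and 13.7 in aged libraries, which overlapped, whereas in members the aged libraries were all higher. The difference of the 2 age effects was 2.31 (SE 0.48, adjusted p = 0.00193, edgeR quasi-likelihood test). The call was lost in C1q-positive members (1.59, adjusted p = 0.433) and without the young 3D or aged 3D library (2.43 and 2.42, adjusted p = 0.640 and 0.764, edgeR). Gpnmb, a glycoprotein of lipid-laden macrophages, differed by 5.04, but 137 of its 186 member UMIs lay in the deepest barcode, and without it the call was lost (4.07, adjusted p = 0.0845, edgeR). Of the 11 lipid-associated genes tested here, Lpl and Gpnmb were called with higher values in members and 1 gene, Cd9, with a lower value (-2.42). Of the 390 member UMIs of Cd9, 216 lay in the young TN barcode described with Pf4. In fibroblasts Cd9 was 1.21, 1.74 and 1.30 UMIs per 10,000 in young and 3.85, 3.93 and 3.40 in aged libraries. Of the 10 macrophage core genes, 2 were called with lower values, and their list had a median of -1.04 against 0.02 over all genes. Within members alone, 6 of the 8 core genes tested had higher values with age, with a median log2 fold change of 0.23 and 0 calls. The part of the fibroblast barcodes in this difference was not tested. With C1q-positive members only, 2 genes differed in place of 25.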

How the data were processed

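Single-cell RNA sequencing libraries (10x Genomics 3′ chemistry, which counts transcript ends) of CD45-depleted stromal vascular cells were used, 1 for each of 2 ages and 3 temperatures. The authors deposited raw UMI counts per gene and barcode, made with Cell Ranger on the mm10 transcriptome. Their later steps in R 4.1.1 with Seurat are not in these counts. Intervals and floors (3 UMIs) cover counting error only.

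Members were found by the stated rule. Their UMIs were summed per library and tested with edgeR 4.0.16 (quasi-likelihood, TMM factors, genes passing filterByExpr, additive age and temperature terms, 2 residual degrees of freedom) in R 4.3.3, with Benjamini-Hochberg adjustment over all genes. Rule genes were left out of the counts of genes. DESeq2 1.42.0 was an alternative. The fitting script was tested on simulated data. The myeloid share was compared by an exact permutation test over libraries. Clusters used scanpy 1.11.5 (2000 variable genes, 10 components, 8 neighbours) and leidenalg 0.10.2, resolution 1.0. For cluster names, a marker was taken as raised when at least 30% of the cluster had it and its level was at least 1.5 times that of the remaining members. A name needed at least 3 raised markers of 1 list and leading genes that did not go against it. Both the settings and the choice to leave clusters unnamed followed inspection of the clusters.

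The members and gene lists were chosen with earlier results of these data known. Genes were named for passing the threshold at 50 CPM or more in the higher group with 1 direction throughout (up to 10 for age, 5 for cold and for fibroblasts), then 5 per direction by smallest unadjusted p for age, and from the lists. Other genes, single barcodes and the genes of the C1q-positive strict set were named after their values were seen. Positions are GRCm38 (GENCODE). The single-nucleus data of the study were not analysed here. Some genes are not reported here.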

Additional observations from a re-analysis of the deposited data

Results flagged for a closer look

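Genes whose age effect differed between members and fibroblast barcodes (edgeR quasi-likelihood interaction test, Benjamini-Hochberg) are given as log2 differences of the age effects. Higher values in members were 16.29 for Ube2c, 15.43 for Top2a, 5.04 for Gpnmb, 3.55 for Stmn1 and 2.31 for Lpl. Lower values were -16.52 for Lcn2, -15.14 for Nrgn, -5.78 for Hba-a1, -5.17 for Ctla2a and -3.56 for Pou2f2. None of these values is a change within members alone, and the fibroblast levels of Pou2f2 are not given here. The values beyond 15 rest on genes at 0 in every member library of 1 age and depend on the prior count, so they are no bounds. Against a floor of 3 UMIs over the age, Ube2c was at least 32.9-fold and Top2a at least 15.2-fold higher in aged members, and Lcn2 at least 35.7-fold and Nrgn at least 105-fold higher in young members. Of these genes, single barcodes held 142 of 147 UMIs of Ube2c, 50 of 68 of Top2a and 175 of 233 of Stmn1 (the aged 14D barcode with 80645 UMIs), 71 of 72 of Lcn2 (a young 3D barcode with neutrophil genes), and 212 of 212 of Nrgn, 55 of 59 of Hba-a1 and 447 of 470 of Ctla2a (the young TN barcode described with Pf4). Pou2f2, a transcription factor gene of B cells and monocytes, was spread over 49 members with at most 9 UMIs in 1, and had 27, 14 and 14 UMIs in young and 7, 23 and 14 in aged libraries. Calls were lost without single libraries for Ube2c, Gpnmb and Stmn1 (young 14D or aged 14D: 13.24 and 13.40, 12.96 and 13.12, 2.12 and 2.12), Top2a (any but the TN libraries: 14.68 to 15.30), Lpl and Lcn2 (young 3D or aged 3D: 2.43 and 2.42, -7.99 and -8.06), Nrgn, Hba-a1 and Ctla2a (young TN or aged TN: -0.164 and -0.165, -4.32 and -4.32, -1.72 and -1.72) and Pou2f2 (any but young 3D, values down to -4.38).

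Barcodes outside the comparisons also held myeloid markers. Of those within the other limits, 53 had at least 5 marker UMIs and lay above the Dcn limit, 43 of them with at least 5 C1q UMIs, and 40 of the 53 were in the aged 14D library. A Ptprc UMI was found in 15 of the 53.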

How the results depend on the processing

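These comparisons rested on 6 libraries with 9 to 28 members each, and the fits within members left 2 residual degrees of freedom. Of the values that answer a comparison, 52 moved and 1 reversed under an alternative, while 58 did not. For age, 1 gene passed in the reported fit, against 2 with DESeq2, 3 with RLE factors, 72 with no filter, 0 without the temperature term, 0 to 20 when 1 library was left out (0 without aged TN or aged 3D, 20 without young 14D), 0 in C1q-positive members, 0 in strict members, 0 at Dcn below 10, 2 at 2000 UMIs or more, 5 after thinning, 0 with equal numbers, 0 without the deepest barcode, 0 without neutrophils, 7 in the C1q-positive strict set and 6 without the top Ccl4 barcodes. For temperature, 1 became 4 with DESeq2, 3 with RLE factors, 138 with no filter, 0 to 64 without 1 library (0 without aged TN, 64 without young 14D), 2 after thinning, 0 with equal numbers, 4 without the deepest barcode, 2 in the C1q-positive strict set and 4 without the top Ccl4 barcodes. For 14D against TN, 0 became 1 with DESeq2, 29 with no filter, 0 to 26 without 1 library (26 without young 14D) and 2 at Dcn below 10. For 3D against TN, 1 became 65 with no filter, 0 to 24 without 1 library (24 without young 14D), 3 after thinning and 0 with equal numbers. For the difference from fibroblasts, 25 became 2 in C1q-positive members, 13 without the deepest barcode and 15 to 30 without 1 library. Within members, the fits that kept all 6 libraries with fewer barcodes or thinned counts tested fewer genes (287 to 2210 in place of 2299), whereas leaving out the young 3D, young 14D or aged TN library raised the number tested (3278, 3313 and 3347). The causes of the changes were not tested.

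In strict and in C1q-positive members, the fitted age effect against fibroblasts changed sign for Nrgn (0.0646 and 0.0661) and Hba-a1 (5.42 and 4.64). In C1q-positive members it also changed sign for Ctla2a (1.12), which kept its direction in strict members. These settings leave out the young TN barcode that held 212 of 212 UMIs of Nrgn, 55 of 59 of Hba-a1 and 447 of 470 of Ctla2a. No Nrgn UMI was left, so its value is no measured reversal, and Hba-a1 had at most 4 UMIs left. The difference in the myeloid share ranged from -0.00157 to 0.0639 percentage points without 1 library, and the C1q-positive share from 2.77 to 19.4. Ccl4 at 3D kept its call in 17 of 19 alternatives, with log2 fold changes of 4.998 to 6.05, and Ccl4 had too few UMIs to be tested after thinning. The 5 alternatives that leave out or add barcodes by depth, neutrophil genes, Ccl4, C1q with strict limits, or Dcn were chosen after the data were seen. The age fit had temperature as a term and the comparison with fibroblasts had library as a block. No paired analysis was possible by replicate number because each age and temperature has 1 library.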

Other observations

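Marco, a scavenger receptor of resident macrophages, had 682 UMIs in only 6 members, 282 of them in 1 young TN barcode of 28368 UMIs that also held 123 UMIs of Timd4. By library it was 24.8, 5.96 and 0 UMIs per 10,000 in young and 0, 0 and 7.02 in aged mice. Axl, an efferocytosis receptor, was 5.43, 2.02 and 1.00 in young and 0.490, 0.643 and 0.899 in aged libraries, with no overlap between ages and 30 members with a UMI (log2 fold change -1.79, not past the threshold). Of all tested genes, 10.2% had no overlap between ages. Axl was among the leading genes of cluster 6, which held 3, 2 and 1 young and 1, 0 and 0 aged members at TN, 3D and 14D.

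Iron storage genes were among the most abundant of the members. Fth1 and Ftl1, the ferritin chains, had UMIs in every member, at 106 UMIs per 10,000 each in C1q-positive barcodes and 69.0 and 49.2 in Lyz2-only barcodes. The deepest barcode held 1632 UMIs of Fth1 and 1569 of Ftl1. Interferon-stimulated genes were lowest in the aged 14D library, at 11.9 UMIs per 10,000 against 21.1 to 31.8 in the other libraries, and 0 of the 6 tested passed with age or temperature in the fits on all members. Ifi27l2a, the most abundant of the list, was among the genes that passed with age in the C1q-positive strict set.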
